A study of Mus musculus with 4 samples.

Results

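Type I interferons are secreted when a cell detects foreign or misplaced nucleic acid, and they act on neighbouring cells through the receptor IFNAR, the kinases JAK1 and TYK2 and a complex of transcription factors, which binds a DNA element (the interferon-stimulated response element) beside its target genes. The products of these targets block viral entry, degrade viral RNA, sense nucleic acid or feed back on the pathway, and a low basal level of many of them is kept up in myeloid cells in the absence of infection. The genes described here were 39 such targets, taken as a list of symbols from the 27998 genes counted, and each symbol was present exactly once in both expression matrices.

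The measurements were made in classical monocytes, the Ly6C-high precursors of tissue macrophages and inflammatory dendritic cells, sorted from bone marrow as Ly6G-CD11b+CD115+Ly6Chi cells of WT C57BL/6 mice. There were 5 young and 5 old mice of each sex, aged 14 weeks or 27 months for males and 15 weeks or 26.5 months for females. These ages come from the methods, and the sample labels give only wider ranges. A hashtag antibody marked the cells of every mouse before the 10 mice of a sex were pooled and sorted, so that each sex was 1 single-cell library and sex could not be told apart from experiment. Unique molecular identifiers (UMIs, 1 per captured transcript) were summed per mouse, and levels are given as UMIs per 1000000 UMIs of that mouse (CPM).

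After filtering, 1226 male cells (700 young, 526 old) and 7604 female cells (3974 young, 3630 old) were analysed, and the libraries shared 0 cell barcodes. The male data were shallow, with 49 to 206 cells and 330586 to 1108320 UMIs per mouse, against 245 to 1837 cells and 2861770 to 21892113 UMIs per female mouse. Old female cells were also the deeper ones, with median UMIs per cell of 10106 to 15275 against 8398 to 9477 in the young females. The summed level of 6 neutrophil genes (Camp, Ngp, Ltf, S100a8, S100a9 and Ly6g) ran from 588 to 3177 CPM in young females and from 183 to 1086 CPM in old females. In young and old males it ran from 277 to 10780 CPM and from 229 to 16119 CPM. Ly6g itself had 33 UMIs in females and 3 in males. The paper describes neutrophil-like cells among classical monocytes, and whether such cells or neutrophils carried these genes was not tested. Markers of Ly6C-high monocytes (Ly6c2, Csf1r, Ccr2, Lyz2 and Fn1) were detected in both pools, and their sum had a lower median in old than in young mice of both sexes. Most of the sum was Lyz2, at 26734 CPM over all male cells and 23214.5 CPM over all female cells. The genes were not compared by age singly. Their sum ran from 33125 to 36114 CPM in young males and from 15560 to 32508 CPM in old males, which did not overlap. In females it ran from 28173 to 30056 CPM in young and from 22459 to 28895 CPM in old mice, which overlapped. The sum of 5 conventional dendritic cell genes had medians of 82.5 CPM in young and 30.5 CPM in old males and of 49.6 and 24.4 CPM in females, with overlapping ranges. Most of this sum was Cd209a, at 68.0 CPM over all male cells and 25.6 CPM over all female cells, while Xcr1 was at 0.147 and 0.0201 CPM. Whether dendritic cells or monocytes carried Cd209a was not tested. The lists for plasmacytoid dendritic cells, T or NK cells, B cells, basophils and Ly6C-low monocytes overlapped between the ages in both sexes. The part of depth and of cell composition in the age differences was not tested.

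Promoters are shown first for 4 of the genes because the sequences differ in matches to the core of the element that the pathway binds. Only exact matches were searched, and binding was not measured. RefSeq promoter windows (GRCm38.p6, from 250 bases before to 50 bases after the start of transcription) matched 29 of the 39 genes. The core of the response element was searched as 2 copies of GAAA with 2 bases of any kind between them, on both strands and with overlapping matches included, and it was found in 15 of the 29 genes, compared with 3.99% of the 27025 genes that had a window. The capitals mark the matches, all sequences are written on the strand of the gene, and a match on the other strand appears as 2 copies of TTTC.
Ifit3: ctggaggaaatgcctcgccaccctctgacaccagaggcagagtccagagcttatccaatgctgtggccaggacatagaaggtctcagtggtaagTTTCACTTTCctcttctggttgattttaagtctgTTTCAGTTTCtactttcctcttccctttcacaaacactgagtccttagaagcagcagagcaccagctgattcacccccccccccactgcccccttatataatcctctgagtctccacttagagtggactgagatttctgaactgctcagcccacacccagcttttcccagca
Isg15: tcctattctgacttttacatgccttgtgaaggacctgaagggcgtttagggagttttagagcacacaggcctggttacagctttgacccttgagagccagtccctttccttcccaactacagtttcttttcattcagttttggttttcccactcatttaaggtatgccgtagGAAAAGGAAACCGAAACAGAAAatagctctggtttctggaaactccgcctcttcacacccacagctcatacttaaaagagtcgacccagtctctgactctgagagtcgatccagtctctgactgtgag
Oas3: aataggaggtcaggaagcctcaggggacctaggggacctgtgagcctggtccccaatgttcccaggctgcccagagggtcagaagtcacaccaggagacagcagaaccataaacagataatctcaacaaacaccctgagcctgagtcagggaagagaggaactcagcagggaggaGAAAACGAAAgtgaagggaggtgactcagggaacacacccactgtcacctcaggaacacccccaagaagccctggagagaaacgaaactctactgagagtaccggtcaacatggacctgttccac
Lgals3bp: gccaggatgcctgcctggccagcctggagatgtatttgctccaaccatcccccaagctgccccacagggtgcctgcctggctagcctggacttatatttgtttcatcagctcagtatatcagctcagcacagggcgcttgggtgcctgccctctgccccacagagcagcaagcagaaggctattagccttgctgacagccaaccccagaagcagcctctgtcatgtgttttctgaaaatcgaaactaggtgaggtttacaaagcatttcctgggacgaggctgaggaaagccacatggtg

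Ifit3, an IFIT protein that acts on foreign RNA, has 2 matches, the first starting 156 bases upstream of the transcription start, at chr19:34583279-34583578 (plus strand). Isg15, a ubiquitin-like modifier, has 3 overlapping matches from 78 bases upstream, at chr4:156200769-156201068 (minus strand). Oas3, an oligoadenylate synthetase that makes the messenger for RNase L, has 1 match 75 bases upstream, at chr5:120777610-120777909 (minus strand). Lgals3bp, a secreted glycoprotein that binds galectins, has none in its window at chr11:118401910-118402209 (minus strand). The windows of Ifit1, Rsad2, Cxcl10, Oas1a, Bst2 and Ifitm3 also held the core, and those of Ifit2, Irf7, Oasl1, Oasl2, Irf9 and Ifi44 did not.

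The first comparison was between old and young females. All 39 genes passed the filter on low counts, and 8 were higher in old females at an edgeR adjusted p under 0.05 while none was called lower (Oasl2, Oas2, Oas3, Zbp1, Parp9, Ifi44, Ifi27l2a and Lgals3bp). Over the 10386 genes tested, 2.4% were called higher in old females and 4.73% in either direction. The median log2 fold change of the 39 genes was 0.14, against -0.0044 over all genes tested, with 27 above 0 and 12 below 0. Before adjustment, 17 of the 39 genes had a p under 0.05, 15 of them higher in old, compared with 20.7% of all genes tested in either direction and 10.1% higher in old. Every old female exceeded every young female for 7 of the 39 genes, compared with 3.47% of all genes tested.

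The OAS family, enzymes and enzyme-like proteins that respond to double-stranded RNA, held 3 of the 8 called genes among its 5 members. Oas2 was at 4.89, 4.32, 5.24, 6.12 and 7.17 CPM in young females and at 7.26, 12.9, 9.25, 8.10 and 10.4 CPM in old females. No old female was as low as a young one (log2 fold change 0.73 ± 0.16 SE, edgeR adjusted p = 0.0208). Oas3, whose promoter is shown above, was at 15.3, 17.7, 13.98, 23.8 and 18.9 CPM in young and 30.3, 46.5, 25.5, 24.4 and 32.6 CPM in old females. These groups did not overlap either, and old mouse 2 was far above the rest (log2 fold change 0.72 ± 0.17 SE, edgeR adjusted p = 0.0240). Oasl2, an OAS-like protein with a ubiquitin-like tail, was at 35.5, 38.4, 39.5, 46.3 and 41.3 CPM in young and 53.4, 73.6, 45.4, 47.3 and 57.8 CPM in old females. Young mouse 4 lay just above old mouse 3, and the other mice were separated by age (log2 fold change 0.43 ± 0.11 SE, edgeR adjusted p = 0.0413). Oas1a, named here after its values were seen, was at 13.2, 14.3, 25.2, 18.7 and 21.4 CPM in young and 25.9, 41.7, 21.8, 23.5 and 29.7 CPM in old females. Its groups overlapped and its p missed the threshold (log2 fold change 0.63 ± 0.18 SE, edgeR adjusted p = 0.0542). Oasl1 was not called (log2 fold change 0.36 ± 0.26). Oas1a has close copies in the mouse genome, so reads shared with them leave its level uncertain.

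Of the 6 nucleic acid sensors and kinases, Zbp1 alone was called. Zbp1, a sensor of Z-form nucleic acid that can trigger necroptosis, was at 61.5, 67.5, 75.8, 73.2 and 71.2 CPM in young females and 129, 118, 85.1, 89.5 and 93.5 CPM in old females. The lowest old female was above the highest young one, and this was the lowest adjusted p of the 39 genes (log2 fold change 0.56 ± 0.11 SE, edgeR adjusted p = 0.00785). Ifih1, which encodes the RNA sensor MDA5, was at 16.98, 16.96, 17.5, 21.97 and 19.2 CPM in young and 18.6, 26.1, 22.4, 21.3 and 22.8 CPM in old females. Its groups overlapped (log2 fold change 0.22 ± 0.09 SE, edgeR adjusted p = 0.184). Ddx58 (the sensor RIG-I), Dhx58, Eif2ak2 (the kinase PKR) and Ifi204 had log2 fold changes of 0.04 ± 0.10, -0.0032 ± 0.12, 0.14 ± 0.07 and 0.09 ± 0.09, and none was called.

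Lgals3bp and Ifi27l2a were called as well. Lgals3bp was at 34.4, 32.4, 34.2, 37.1 and 33.1 CPM in young females, a narrow range, and at 51.1, 76.5, 41.6, 43.8 and 62.6 CPM in old females. All 5 old mice were above all 5 young mice (log2 fold change 0.66 ± 0.14 SE, edgeR adjusted p = 0.0140). Ifi27l2a, a small interferon-induced protein, was at 696, 755, 721, 823 and 761 CPM in young and 876, 1759, 1036, 1001 and 1055 CPM in old females. The groups did not overlap, and old mouse 2 stood apart from the other 4 old mice (log2 fold change 0.61 ± 0.13 SE, edgeR adjusted p = 0.0186). Parp9, an ADP-ribosyltransferase family protein that pairs with the ubiquitin ligase Dtx3l, was at 28.9, 28.2, 32.5, 31.6 and 30.7 CPM in young and 36.4, 38.2, 33.6, 34.8 and 33.9 CPM in old females. The separation by age was complete but the difference was small (log2 fold change 0.22 ± 0.06 SE, edgeR adjusted p = 0.0422), and DESeq2 did not call it (adjusted p = 0.0575). Dtx3l itself had a log2 fold change of 0.14 ± 0.09 and Parp14 one of 0.04 ± 0.09, with neither called. Ifi44, an interferon-induced protein, rested on 158 UMIs over the 10 females, at 1.22, 1.08, 0.349, 0.822 and 0.911 CPM in young and 2.18, 4.39, 1.35, 1.58 and 2.94 CPM in old. The groups did not overlap at this low level (log2 fold change 1.33 ± 0.34 SE, edgeR adjusted p = 0.0413).

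**Figure D1:**
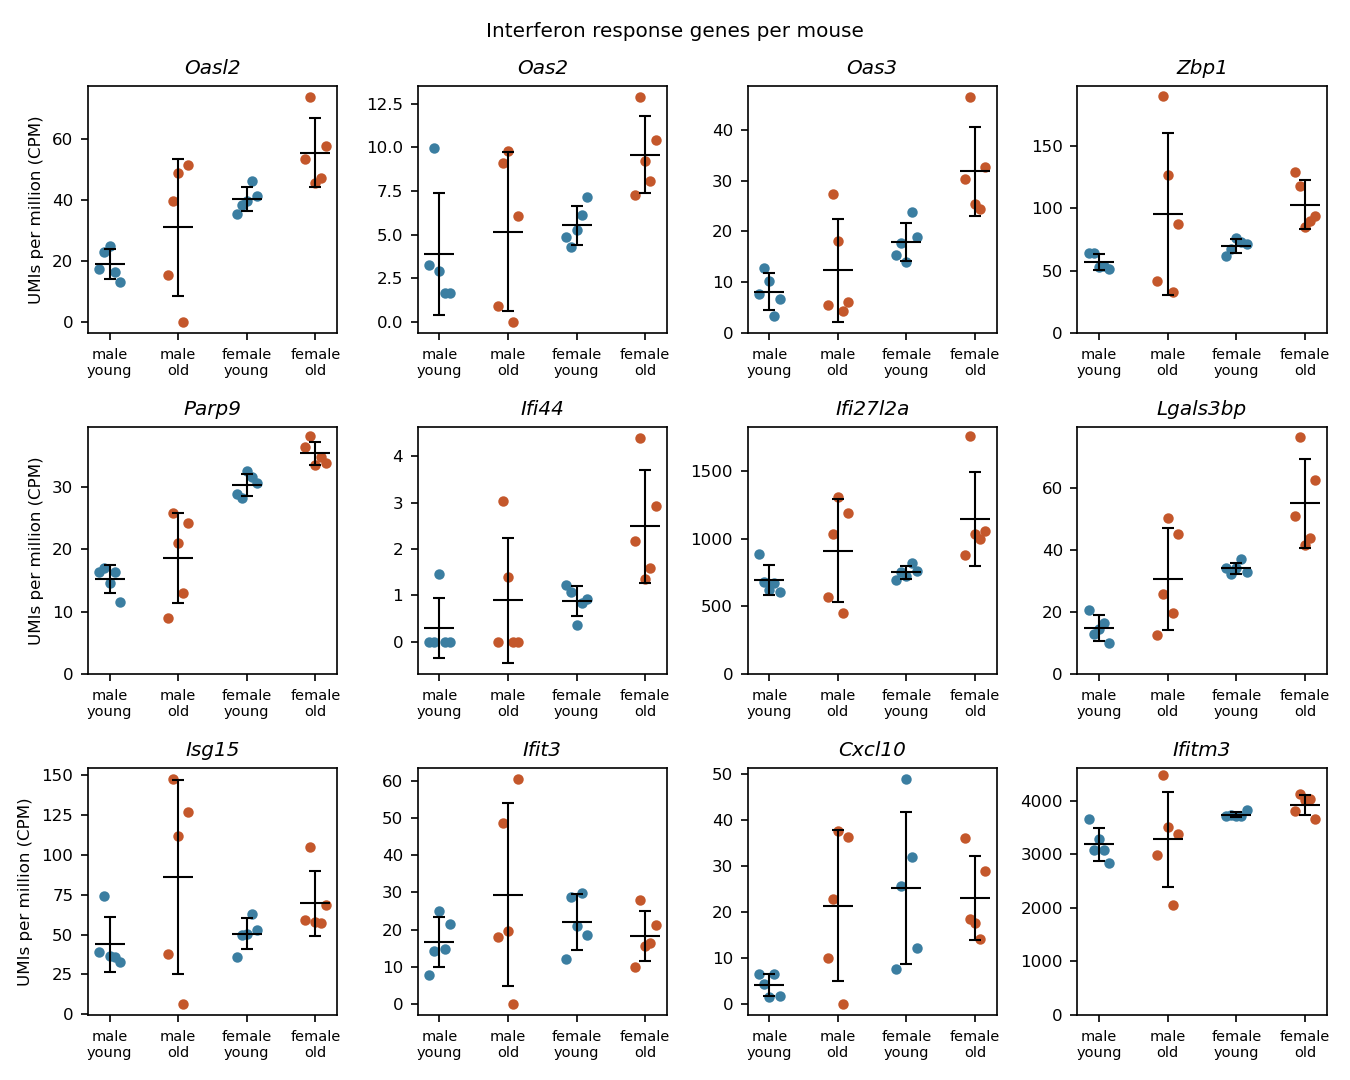
Levels in CPM (y axes, 1 panel per gene) of the 8 genes called in females and of Isg15, Ifit3, Cxcl10 and Ifitm3, in each mouse by sex and age. Points are mice, blue for young and orange for old, and bars give the mean ± SD of 5 mice. Old females lie above young females for Zbp1 and Lgals3bp, while the old males spread widely and old male 4 is at 0 CPM for Oasl2.

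Ifit3, Rsad2 and Cxcl10, which strong interferon signals induce, were not called. Ifit3 was at 11.95, 28.7, 20.97, 29.97 and 18.6 CPM in young females and 10.04, 27.9, 15.6, 16.4 and 21.2 CPM in old females. The ranges overlapped almost entirely and the difference was below 0 (log2 fold change -0.35 ± 0.24 SE, edgeR adjusted p = 0.444). Rsad2, the antiviral enzyme viperin, was at 7.33, 10.6, 8.74, 15.9 and 10.6 CPM in young and 5.45, 15.2, 8.50, 9.33 and 7.50 CPM in old females. Its groups overlapped (log2 fold change -0.33 ± 0.23 SE, edgeR adjusted p = 0.440). Cxcl10, a chemokine for T cells, was at 7.47, 25.7, 48.9, 31.9 and 12.2 CPM in young and 36.1, 18.5, 17.5, 14.1 and 28.8 CPM in old females. Its spread within an age was wider than any difference between ages (log2 fold change -0.06 ± 0.36 SE, edgeR adjusted p = 0.966). Ifit1 and Ifit2 had log2 fold changes of -0.15 ± 0.19 and -0.04 ± 0.21. Ifit3 has a near-identical neighbour, and reads shared by the pair leave its level uncertain.

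The Isg15 system held no called gene. Isg15 was at 35.9, 49.96, 50.7, 63.1 and 52.9 CPM in young females and 58.9, 105, 58.1, 57.3 and 68.8 CPM in old females. Young mouse 4 lay among the old mice and old mouse 2 far above all others (log2 fold change 0.43 ± 0.16 SE, edgeR adjusted p = 0.147). Usp18, the protease that removes Isg15 and damps the receptor, was at 24.3, 29.9, 27.95, 31.4 and 26.9 CPM in young and 25.2, 44.4, 26.02, 23.5 and 30.7 CPM in old females. Apart from old mouse 2 the groups covered nearly the same range (log2 fold change 0.05 ± 0.14 SE, edgeR adjusted p = 0.893). Herc6, the ligase that attaches Isg15 in the mouse, had a log2 fold change of 0.25 ± 0.11 and was not called.

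None of the transcription factors of the response was called. Irf7, which amplifies interferon production, was at 96.03, 105, 101, 116 and 105 CPM in young and 90.8, 162, 113, 105 and 121 CPM in old females. The groups overlapped, with old mouse 1 the lowest of all and old mouse 2 the highest (log2 fold change 0.17 ± 0.11 SE, edgeR adjusted p = 0.422). Stat2 was at 15.2, 20.5, 22.01, 23.2 and 19.6 CPM in young and 16.2, 22.3, 19.9, 20.9 and 19.5 CPM in old females. Its groups covered nearly one range (log2 fold change -0.03 ± 0.10 SE, edgeR adjusted p = 0.924). Irf9 had a log2 fold change of -0.03 ± 0.07.

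Of the remaining genes named by rule, the membrane proteins Bst2 and Ifitm3 and the Schlafen protein Slfn1 missed the threshold. Bst2 (tetherin), which holds budding virus at the cell surface, was at 182, 212, 189, 203 and 191 CPM in young and 237, 303, 212, 192 and 276 CPM in old females. Only old mouse 4 fell inside the young range (log2 fold change 0.32 ± 0.10 SE, edgeR adjusted p = 0.0752). Ifitm3, which blocks viral entry, was at 3709, 3733, 3719, 3717 and 3832 CPM in young and 3799.5, 4117, 4014, 4032 and 3662 CPM in old females. The change was small and the groups overlapped (log2 fold change 0.07 ± 0.03 SE, edgeR adjusted p = 0.165). Slfn1 was at 106, 110.4, 116, 127 and 124 CPM in young and 150.4, 148, 121, 133 and 102 CPM in old females. Old mouse 5 was below every young mouse (log2 fold change 0.16 ± 0.09 SE, edgeR adjusted p = 0.321). The other 20 genes had log2 fold changes from -0.22 (Mx1) to 0.63 (Oas1a), 12 above and 8 below 0, and none was called (edgeR adjusted p from 0.0542 to 0.9996).

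Among the old females 1 mouse stood out. Old female 2 had the highest level of the 10 females for 24 of the 39 genes, and the UMIs of the 39 genes together made up 81.2 of every 10000 UMIs in that mouse, against 64.2 to 66.8 in the other old females and 57.8 to 62.5 in the young females. Most of this sum was Ifitm3 and Ifi27l2a, at 59.5% and 14.6% of the UMIs of the list in females. Ifi27l2a was at 1759 CPM in that mouse and 876 to 1055 CPM in the other old females, and Ifitm3 at 4117 and 3662 to 4032 CPM. Without old female 2 the median log2 fold change of the 39 genes was 0.06 and 6 genes were called, namely Oas2, Oas3, Zbp1, Ifi27l2a and Lgals3bp, higher in old, and Mx1, lower in old. Leaving out young female 1 or young female 2 left only Zbp1 and Lgals3bp, leaving out young female 3 or 5 left those and Oas2, and leaving out old female 1 left 5 genes. With old female 3 left out, 11 were called. Fits without a mouse have fewer replicates, and the share of all genes called in each is not given here. Whether these changes are particular to the 39 genes was not tested. Zbp1 and Lgals3bp were called in females under each of the 20 alternatives run, Oas2 under 17, Ifi27l2a under 16, Oas3 under 15, Oasl2 under 11 and Parp9 under 8 of them, and Ifi44 under 6 of the 15 in which it was tested. Of the genes named by rule and not called, Bst2 was called under 4 alternatives, DESeq2 among them, and Isg15 and Ifitm3 under 2 each. Oas1a, not named by rule, was also called under several. Among them were no filter on low counts, the 2% of cells left out, and old female 3 or old female 4 left out. After thinning each cell to 2000 UMIs, which removed the difference in depth between ages, 3 genes were called (Zbp1, Ifi27l2a and Lgals3bp) and the median of the genes tested was 0.10. Thinning also dropped most UMIs, as the median depth per cell had been 8398 to 15274.5 over the females, and 37 of the genes were tested. Each thinned cell had the same weight, and the 39 genes made up 74.6 to 107 of every 10000 UMIs per female mouse, against 57.8 to 81.2 before. The share of all genes called after thinning is not given, and the part of lost counts and of this weighting in the fewer calls was not tested.

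The second question was whether a few cells carried these differences. In each pool the 2% of cells with the highest share of UMIs from the 39 genes were set apart, 25 male cells and 152 female cells. Just inside the limit the lowest share was 2.148% in females and 1.92% in males, and just outside it the highest was 2.147% and 1.90%. These cells held 4.96% of the UMIs of the 39 genes with 1.13% of all UMIs in the female pool, and 7.49% with 1.49% in the male pool. As these genes chose the cells, the number detected per cell is a description only, with a median of 30 of the 39 in each such female cell and 12 in the other cells (median depths 7210 and 10482 UMIs), and of 20 and 5 in male cells. Ifitm3 alone made up 59.5% of the UMIs of the list in females and 62.6% in males, and Ifi27l2a 14.6% and 15.1%.

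How strongly a gene was concentrated in such cells differed by gene. For each gene the 2% of cells were ranked anew by the other 38 genes, so that a gene did not choose its own cells, and the share of its UMIs in them is a description with no test. The IFIT genes were the most concentrated role group. In females 48.3% of Ifit3 UMIs, 46.2% of Ifit1 and 39.4% of Ifit2 lay in these cells, and in males 51.4%, 48.2% and 55.2%. Rsad2 (41.8% in females, 34.9% in males) and Cxcl10 (41.0% and 53.8%) lay among them in females, followed there by Ifi44 at 32.3% and Oasl1 at 30.2%. At the other end stood in females Irf9 (1.91%), Ifitm3 (2.70%), Ifi27l2a (3.78%), Bst2 (4.20%) and Parp9 (4.53%), and in males Irf9 (3.15%), Ifitm3 (4.13%), Dtx3l (5.50%), Ifi27l2a (5.89%) and Stat2 (6.10%). Of the genes called by age in females, Ifi44 had 32.3%, Oas3 12.4%, Oasl2 12.3% and Oas2 10.9% of their UMIs there. The other called genes were Zbp1 at 6.76%, Lgals3bp at 6.10%, Parp9 at 4.53% and Ifi27l2a at 3.78%. In males Ifit3 and Ifit2 rested on 142 and 58 UMIs in all, so their male shares are coarse.

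**Figure D2:**
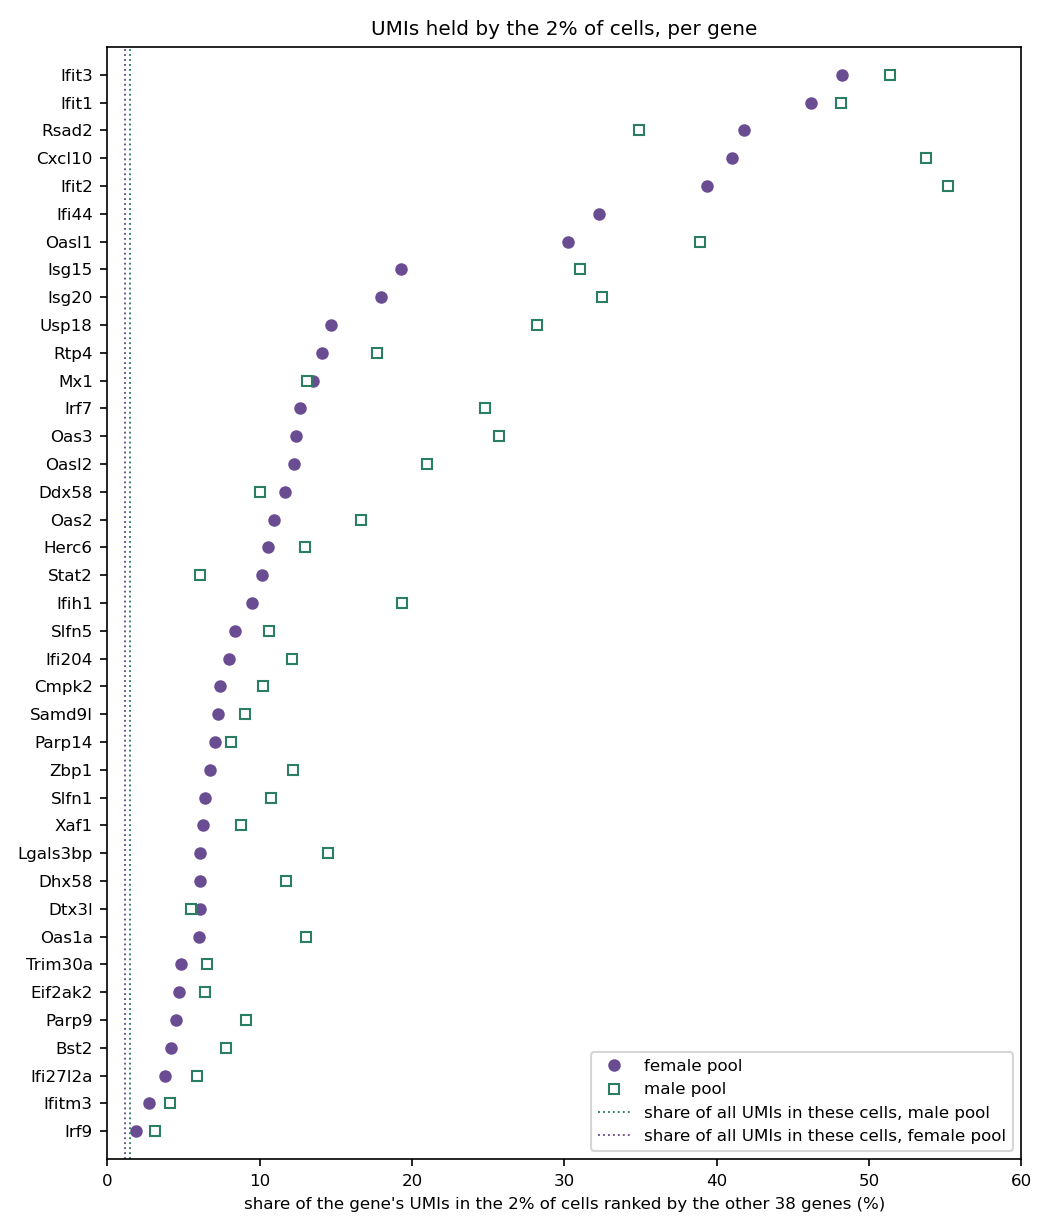
Share of each gene's UMIs (x axis, percent) that lay in the 2% of cells of a pool ranked by the other 38 genes, for females (filled circles) and males (open squares), with genes ordered by the female value. The male value of Ifi44 (4 UMIs) is left out. The IFIT genes, Rsad2 and Cxcl10 lie at the top, and Irf9 and Ifitm3 lie nearest to the dotted lines, which mark the share of all UMIs in the 2% of cells ranked by all 39 genes (1.13% in females, 1.49% in males).

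The median female share was 10.1% for the 15 genes with the core of the response element in the promoter window and 8.96% for the 14 genes without it. Of the called genes with a window, Oas3 held an exact match to the core and Oasl2, Ifi44 and Lgals3bp did not. Near matches were not searched, so a gene without an exact match is not shown to lack the element.

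The share of cells in this 2% did not follow age in one direction. In females it was 1.14, 2.60, 1.63, 2.56 and 2.17% of the cells of young mice and 0.982, 3.69, 1.26, 1.68 and 2.10% of those of old mice. The groups overlapped, with old mouse 2 the highest. In males it was 0.565, 1.49, 2.14, 0 and 1.64% in young and 2.43, 2.59, 6.06, 0 and 5.36% in old mice. Old male 4 had 0 such cells of 49, which allows a share of up to 6.12% by counting error alone, and young male 4 had 0 of 127, which allows up to 2.36%. Old male 3 had the highest share, and the groups overlapped. The male split of 8 young to 17 old cells turned to 14 young and 11 old when the cells were ranked without Ifitm3 and Ifi27l2a, a ranking chosen after the data were seen, while the female split went from 88 and 64 to 93 and 59.

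**Figure D3:**
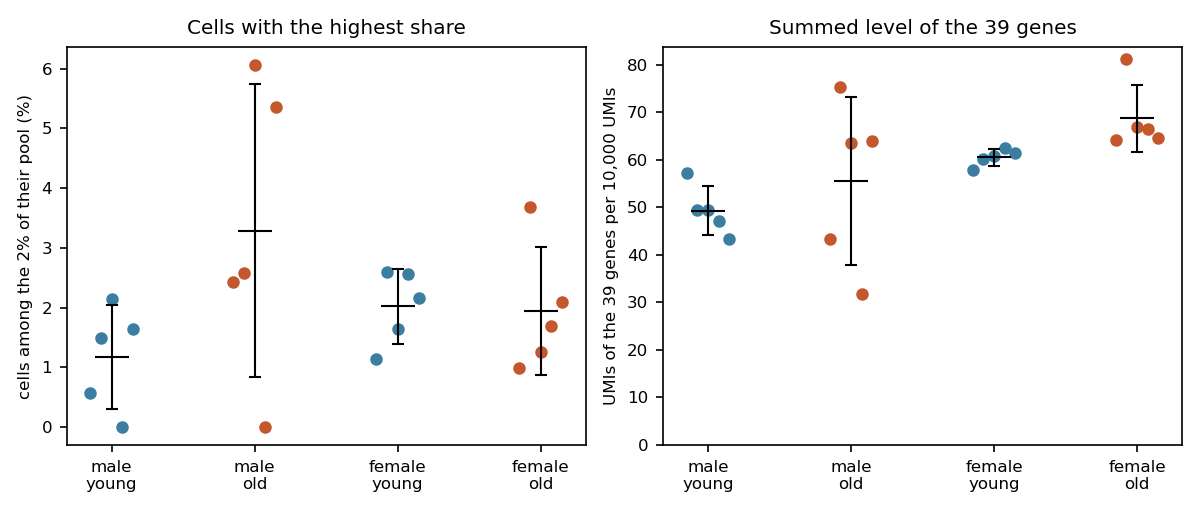
Percent of each mouse's cells among the 2% of its pool (left y axis) and UMIs of the 39 genes per 10000 UMIs (right y axis), by sex and age. Points are mice, blue for young and orange for old, and bars give the mean ± SD of 5 mice. Old female 2 is the highest female in both panels, at 3.69% and 81.2.

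With these cells left out, 38 of the 39 genes were tested in females and 9 were called, all higher in old, against 2.39% of the 10375 genes tested (4.62% in either direction). Of the 8 earlier calls, 7 were among them. The tested genes also chose the cells left out, so calls gained or lost here are a description only. Those cells held a mean of 5.55% of the UMIs of the 39 genes in young females and 4.11% in old females. Isg15 was gained, at 32.00, 33.8, 36.7, 47.5 and 39.5 CPM in young and 53.7, 89.4, 50.9, 43.1 and 60.05 CPM in old females without those cells. Old mouse 4 still lay within the young range (log2 fold change 0.60 ± 0.16 SE, edgeR adjusted p = 0.0477). Oas1a was gained too (log2 fold change 0.71 ± 0.18 SE, edgeR adjusted p = 0.0358), and Ifi44 no longer passed the filter on low counts. Oas3 had a log2 fold change of 0.85 ± 0.16 and Oas2 one of 0.83 ± 0.17. The median log2 fold change of the genes tested was 0.18, with 32 of 38 above 0. Ifit2 moved from -0.04 to 0.51 ± 0.20 and was not called (edgeR adjusted p = 0.154), and Ifit3 stayed below 0 at -0.12 ± 0.21. The mean of Ifit2 fell from 7.61 to 3.80 CPM in young females and from 8.09 to 6.06 CPM in old females. From 6 to 12 genes were called when each mouse was left out of this comparison in turn, with Isg15 and Oas1a among them in 3 of the 10 fits each. Isg15 also missed the threshold when the cells were chosen after thinning (edgeR adjusted p = 0.0531).

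**Figure D4:**
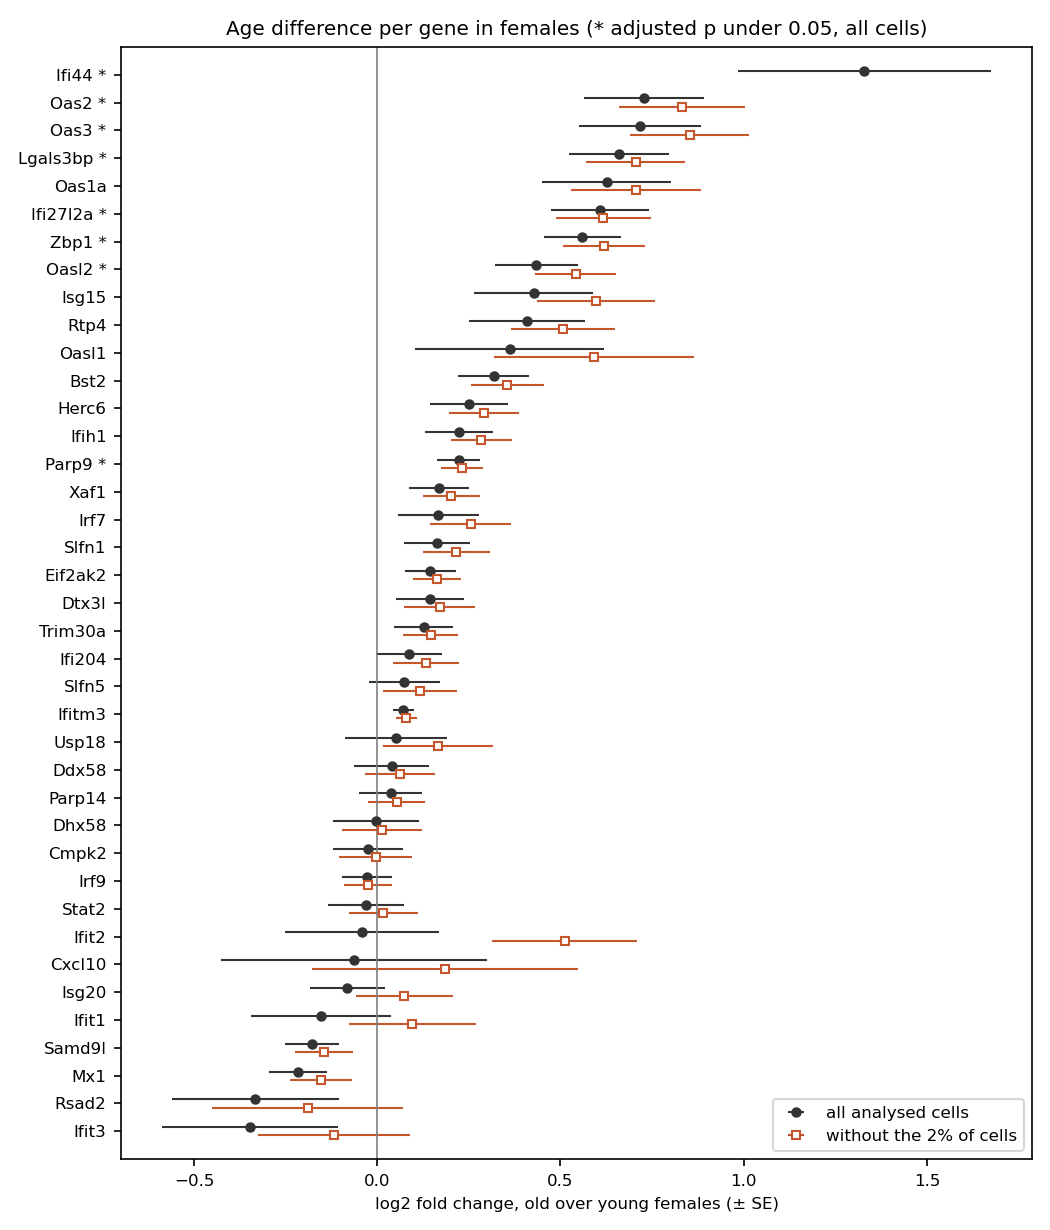
Log2 fold change of old over young females ± SE (x axis) for each of the 39 genes, with all analysed cells (filled circles) and without the 2% of cells (open squares). Asterisks mark an edgeR adjusted p under 0.05 with all cells. Ifit2 moves from -0.04 to 0.51, and Zbp1 lies at 0.56 and 0.62.

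The third comparison was between old and young males, in which 24 of the 39 genes passed the filter on low counts. None of them was called by edgeR, where 0% of the 5655 genes tested were called. DESeq2 also called none of the 39. A single gene had an unadjusted p under 0.05, Lgals3bp, compared with 5.61% of all genes tested that were higher in old at that level. No gene of the list separated the ages completely, compared with 0.973% of all genes tested with every old mouse above every young one. The median log2 fold change of the 24 genes was 0.26 (all genes tested 0.01), but 0.11 without old male 2, 0.45 without old male 1 and 0.10 with the singlets of HTODemux, another assignment of cells to mice, and that of all 39 without the filter was 0.23, with 29 above 0.

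Lgals3bp was at 20.7, 12.8, 14.6, 16.4 and 9.88 CPM in young males and 12.6, 25.9, 50.3, 19.6 and 45.4 CPM in old males. Old mouse 1 lay inside the young range, old mouse 4 below young mouse 1 and the other 3 above all young mice (log2 fold change 0.88 ± 0.36 SE, edgeR adjusted p = 0.374). Zbp1 was at 64.4, 64.03, 52.7, 53.99 and 51.04 CPM in young and 41.5, 190.1, 127, 32.7 and 87.7 CPM in old males. Old mice 2, 3 and 5 were above all young mice and old mice 1 and 4 were below all of them (log2 fold change 0.74 ± 0.35 SE, edgeR adjusted p = 0.458). Isg15 was at 39.3, 73.99, 36.6, 36.00 and 32.9 CPM in young and 37.9, 148, 112, 6.54 and 127 CPM in old males. Old mice 2, 3 and 5 were again above all young mice, old mouse 1 lay inside the young range and old mouse 4 was the lowest of all (log2 fold change 0.93 ± 0.44 SE, edgeR adjusted p = 0.459). Ifi27l2a was at 884, 683, 622, 672 and 609 CPM in young and 572, 1034, 1310.1, 451 and 1189 CPM in old males. Once more old mice 2, 3 and 5 were above the young range and mice 1 and 4 below it (log2 fold change 0.39 ± 0.22 SE, edgeR adjusted p = 0.554).

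Old mice 2, 3 and 5 were also above all young males for Oasl2, Bst2 and Parp9, whereas old mouse 3 lay within the young range for Irf7, Ifit3, Usp18, Ifitm3 and Slfn1. Oasl2 was at 17.5, 22.8, 24.9, 16.4 and 13.2 CPM in young and 15.3, 39.5, 48.9, 0 and 51.4 CPM in old males (log2 fold change 0.62 ± 0.45 SE, edgeR adjusted p = 0.643). Irf7 was at 48.04, 68.3, 49.8, 47.4 and 59.3 CPM in young and 36.1, 132, 65.6, 43.6 and 106 CPM in old males (log2 fold change 0.43 ± 0.30 SE, edgeR adjusted p = 0.627). Bst2 was at 133, 162, 177, 131 and 128 CPM in young and 117, 224, 208, 166 and 197 CPM in old males (log2 fold change 0.29 ± 0.16 SE, edgeR adjusted p = 0.522). In each of the 3 genes old mouse 1 was below most young mice and old mouse 2 or 5 was the highest. Ifit3 was at 7.64, 14.2, 24.9, 14.7 and 21.4 CPM in young and 18.05, 48.7, 19.6, 0 and 60.5 CPM in old males (log2 fold change 0.73 ± 0.49 SE, edgeR adjusted p = 0.621). Parp9 was at 16.4, 17.1, 14.6, 16.4 and 11.5 CPM in young and 9.02, 25.9, 20.95, 13.1 and 24.2 CPM in old males (log2 fold change 0.17 ± 0.30 SE, edgeR adjusted p = 0.886). Usp18 was at 36.03, 31.3, 19.04, 11.5 and 14.8 CPM in young and 9.02, 44.1, 22.3, 10.9 and 36.3 CPM in old males (log2 fold change -0.08 ± 0.40 SE, edgeR adjusted p = 0.967). The groups of these genes overlapped throughout. Ifitm3 was at 3668, 3073, 3277, 3076 and 2845 CPM in young and 2978, 4489, 3507, 2052 and 3382 CPM in old males (log2 fold change 0.04 ± 0.14 SE, edgeR adjusted p = 0.947). Slfn1 was at 84.1, 86.8, 80.5, 67.1 and 62.6 CPM in young and 36.1, 164, 71.2, 6.54 and 87.7 CPM in old males (log2 fold change -0.08 ± 0.39 SE, edgeR adjusted p = 0.965). Both were highest in old mouse 2 and lowest in old mouse 4. Of the 39 genes, 20 were highest in old male 2, 10 in old male 5, 4 in old male 3 and none in old males 1 and 4. The summed level of the neutrophil genes named above, whose source was not tested, was 561, 10779.6, 5219, 277 and 346 CPM in young males. In old males it was 229, 6456, 6239, 16119 and 4888 CPM. Its relation to the levels of the 39 genes was not tested.

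The remaining 7 of the named genes did not pass the filter on low counts in males. Oas2 was at 3.28, 9.96, 2.93, 1.64 and 1.65 CPM in young and 0.902, 9.13, 9.78, 0 and 6.05 CPM in old males, on 30 UMIs in all. Oas3 was at 7.64, 12.8, 10.3, 3.27 and 6.59 CPM in young and 5.41, 27.4, 18.2, 4.36 and 6.05 CPM in old males, on 70 UMIs. Ifi44 had 4 UMIs over the 10 males. These levels are too low to order the ages. Ifih1 was at 13.1, 14.2, 13.2, 14.7 and 13.2 CPM in young and 12.6, 19.8, 12.6, 8.71 and 15.1 CPM in old males. Stat2 was at 20.7, 8.54, 10.3, 14.7 and 3.29 CPM in young and 9.92, 21.3, 11.2, 6.54 and 9.07 CPM in old males. Rsad2 was at 0, 9.96, 13.2, 9.82 and 1.65 CPM in young and 4.51, 6.08, 9.78, 0 and 12.1 CPM in old males, with old mouse 4 and young mouse 1 at 0. All 3 covered overlapping ranges. Cxcl10 was at 6.55, 4.27, 1.46, 6.54 and 1.65 CPM in young and 9.92, 22.8, 37.7, 0 and 36.3 CPM in old males. The other 4 old mice were above all young mice, and old mouse 4 was at 0. Without the filter on low counts Cxcl10 was called in males, alone among the 39, with a log2 fold change of 2.19 ± 0.46 (edgeR adjusted p = 0.00319), where 0.744% of the 13167 genes tested were called. It rested on 80 UMIs, 53.8% of them in the 2% of cells ranked by the other 38 genes. Leaving out the 25 cells with the highest share of the 39 genes, 23 genes were tested and none was called (edgeR, 0% of the 5617 genes tested), and the median log2 fold change was 0.14. At an unadjusted edgeR p under 0.05 there were 3 of the 23, and the share of all genes at that level is not given for this fit.

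Whether the age difference itself differed between the pools was tested by an interaction term over all 20 mice. None of the 38 genes tested was called by edgeR (0.0225% of the 8885 genes tested were called), and 1 had an unadjusted p under 0.05, against 448 of the 8885. That gene was Ifit1, whose female minus male difference of log2 fold changes was -1.25 ± 0.61 (edgeR adjusted p = 0.978). For Zbp1 the difference was -0.15 ± 0.37, for Lgals3bp -0.21 ± 0.45 and for Oas3 0.12 ± 0.63. With errors of this size the calls in females and their absence in males are not shown to differ.

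The rest of the pathway was taken from a list of 38 genes upstream of or around the 39. In females 26 of them were tested, 2 were higher and 2 lower in old, against 4.73% of all genes tested in either direction. Before adjustment, 14 of the 26 had an edgeR p under 0.05, compared with 20.7% of all genes tested. In males 21 were tested and edgeR called none (0% of all genes tested), with 5 at an unadjusted p under 0.05. The share of all genes at that level in either direction is not given for males. The 10 interferon ligands were close to absent, with 0 UMIs in males, and in females 5 of Ifnb1, 3 of Ifnk, 7 of Ifng and 0 of the others. Ifnar2, a chain of the type I receptor, was lower in old females (log2 fold change -0.16 ± 0.04, edgeR adjusted p = 0.0281). Irf8, a factor of monocyte and dendritic cell fate, was lower as well, barely under the threshold (-0.18 ± 0.05, edgeR adjusted p = 0.04996). Calls of the pathway genes under the alternatives are not given. Myd88, the adaptor of most Toll-like receptors, was higher (0.26 ± 0.06, adjusted p = 0.0181), as was Socs3, a brake on JAK and STAT signalling (2.01 ± 0.22, adjusted p = 0.000177). Socs1, a brake that the response induces and that was not used to choose the 2% of cells, was at 104 CPM in the 152 female cells, on 117 UMIs, and at 6.73 CPM in the other cells. The other brakes of the list were Socs3 at 24.0 and 8.14 CPM, Ptpn6 at 408 and 352, Ptpn11 at 36.5 and 37.4 and Ptpn2 at 40.9 and 48.1 CPM. These values are a description with no test.

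Cell type markers and surface proteins describe these cells further. The 5 matched markers of Ly6C-high monocytes summed to 47961 CPM in the 152 female cells and 27545 CPM in the other cells, most of it Lyz2 (41488 and 23005 CPM), while Fn1 was lower there (902 and 983 CPM). The 5 markers of Ly6C-low monocytes summed to 202 and 169 CPM in females and to 365 and 166 CPM in males, with Ace at 37.4 and 5.22 CPM and Spn at 40.0 and 84.4 CPM in females. In females the 6 neutrophil markers summed to 57.8 and 684 CPM, and those of plasmacytoid dendritic cells, which are strong producers of interferon, to 1.78 and 7.31 CPM, with Ly6d alone of the 6 detected in the former (2 UMIs) and Siglech, Ccr9 and Cox6a2 at 0. T or NK cell and basophil markers had 0 UMIs in the 152 cells. Cells that HTODemux calls doublets from their hashtags made up 12.5% of these cells and 14.1% of the others. In males such doublets made up 36% of the 25 cells and 32.6% of the others.

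Surface antibody counts, available in the female pool alone, were compared within each of the 9 mice that had at least 5 of the 152 cells. CD11b, an integrin of myeloid cells, made up from 8.58% to 15.5% of surface antibody counts in those cells (median 11.1%) and from 7.19% to 8.33% in the other cells (median 7.60%). It was higher in the 2% of cells in 9 of 9 mice, with a mean log2 ratio of 0.54 ± 0.19 (SD, n = 9; two-sided exact sign-flip permutation test, p = 0.00391, the smallest that 9 mice allow, adjusted over the 6 antibodies 0.0234). CD115, the receptor for the monocyte growth factor, made up from 0.412% to 1.07% of surface antibody counts in those cells (median 0.558%) and from 0.690% to 1.19% in the other cells (median 0.916%). It was lower in 8 of 9 mice, with a mean log2 ratio of -0.45 ± 0.36 (SD, n = 9; exact test, p = 0.0156, adjusted 0.0469). CD115 counts were low, with means over the mice of 4.48 per cell in those cells and 5.90 in the other cells. The RNA of its gene, Csf1r, went the other way, at 479 CPM in the 152 cells and 241 CPM in the others. Leaving out any mouse but young female 1 took the adjusted p of CD115 above the threshold, up to 0.0938. Ly6C, CD11c, MHC-II and Flt3 did not pass, with mean log2 ratios of -0.06 ± 0.08, 0.09 ± 0.33, 0.11 ± 0.59 and 0.08 ± 0.25 and exact adjusted p of 0.109 to 0.629 (n = 9). Without old female 1, Ly6C was lower in 8 of 8 mice and passed (mean log2 ratio -0.07 ± 0.06, exact permutation test, adjusted p = 0.0234). Ly6C made up a median of 80.1% of the counts in those cells and 84.9% in the others, so its share also depends on the other antibodies. As mean counts per cell it was at 515 and 541, lower in 6 of 9 mice (exact permutation test, adjusted p = 0.555). Ly6c2 RNA was at 3552 CPM in the 152 cells and 2435 CPM in the others.

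**Figure D5:**
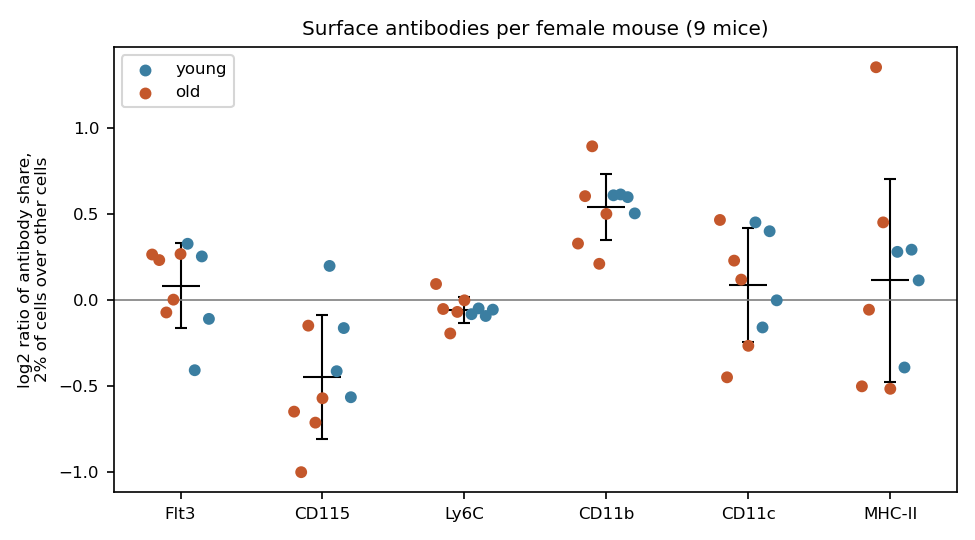
Log2 ratio of an antibody's share of all surface antibody counts in the 2% of cells over that in the other cells of the same mouse (y axis), for 6 antibodies in 9 females. Points are mice, blue for young and orange for old, and bars give the mean ± SD. All 9 points for CD11b lie above 0, and 8 of 9 for CD115 lie below it.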

How the data were processed

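Classical monocytes of 5 young and 5 old mice per sex, hashtagged per mouse and pooled by sex, were measured as 2 single-cell 3′ libraries. The deposited values were whole-number UMI counts per gene or antibody and barcode. Per the methods, the authors aligned reads with STAR 2.5.1 to mm10 (Ensembl annotation) and counted with Cell Ranger 4.0.0, whereas the file headers name version 7.0.0 (males) and 3.1.0 (females). The deposited male data held no barcode over 5% mitochondrial UMIs, and the female data held 534 at or above it. Multigene families can share reads in such counts, and here this touches Ifit3, Oas1a, Trim30a, Ifi204 and Ifi27l2a.

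Barcodes needed more than 200 detected genes and a mitochondrial share below 5%, and each was given to a mouse when the leading hashtag had at least 10 counts and at least 3 times the second; 2294 female barcodes and 1 male barcode were dropped. No doublet caller was used beyond this; 400 of the 1226 male and 1071 of the 7604 female cells are HTODemux (Seurat 5.3.0) doublets, and its singlets were an alternative. The hashtag table deposited with the series gave each mouse's age group and number. Counts were summed per mouse and tested with edgeR 4.0.16 by quasi-likelihood (filterByExpr, TMM scaling, no covariate, two-sided, Benjamini-Hochberg over all genes tested, threshold 0.05), per pool and, with an interaction of pool and age, over all 20 mice. DESeq2 1.42.0 was an alternative. The fit was tested on simulated data. The mouse was the replicate, since each hashtag marked a separate animal. The numbers of young and old mice do not pair them. Antibody shares were compared by an exact sign-flip permutation test over mice.

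The genes, their role groups and the other lists were chosen with earlier results of these data known. The values of 1 gene of the pathway list are not reported here. Values per mouse are given for genes called in either pool and for Isg15, Ifit3, Irf7, Rsad2, Cxcl10, Stat2, Oasl2, Ifih1, Bst2, Ifitm3, Usp18 and Slfn1. Alternatives were another assignment of cells, total-UMI scaling, no filter, thinning to 2000 UMIs, the replicate block, leaving out the 2% of cells or each mouse, and other cut-offs of those cells. Intervals and floors cover counting error only. Python 3.11.15 and R 4.3.3 were used.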

Additional observations from a re-analysis of the deposited data

Results flagged for a closer look

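In groups of 5 mice, 8 of 84 groups held a mouse whose gap to its nearest neighbour exceeded the critical share of the group's range (0.71), where chance gives about 1 in 20 groups, and many of the 84 share their mice. Among old females, mouse 2 was set apart for Isg15 (105.3 CPM), for Ifi27l2a (1759 CPM) and for the summed UMIs of the 39 genes (81.2 per 10000), which include both. Among young females, mouse 5 was the highest for Ifitm3 (3832 CPM). Among young males, mouse 2 was the highest for Isg15 (74.0 CPM) and Oas2 (9.96 CPM), mouse 1 for Ifi27l2a (884 CPM) and mouse 3 for Ifi44 (1.46 CPM, the only young male with a UMI). The median depth of old female 2 was 13982.5 UMIs per cell, inside the range of the old females. The part of that mouse in the calls is given with the leave-one-out values.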

How the results depend on the processing

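In females, Zbp1 and Lgals3bp kept their direction and their call under all 20 alternatives. The number of the 39 genes called in females was 3 after thinning to 2000 UMIs and from 2 to 11 with each mouse left out, and it stayed within 1.5 times the value of 8 under the other alternatives, with changes in which genes these were. With the 2% of cells removed it ran from 6 to 12 with each mouse left out. In males it was 1 without the filter on low counts and 0 otherwise. The share of all genes called is given in the Results for the first fit of each pool and for the fits without the 2% of cells. It is also given there for males without the filter, and not for the other alternatives or for fits without a mouse. The 2% of cells held 4.96% and 7.49% of the UMIs of the list in females and males. For 1% of cells the female value was 2.95%, for 5% of cells the values were 10.3% and 14.2%, and for female cells ranked after thinning 6.98%. The last held 2.00% of all UMIs after thinning, against 1.13% of all UMIs in the 2% of female cells before it. Ranked without Ifitm3 and Ifi27l2a, chosen after the data were seen, the cells held 11.1% and 16.9% of the UMIs of the remaining genes. The cells ranked by all 39 genes held 10.2% and 15.8% of the UMIs of those same genes. From 1 to 2 of 6 antibodies passed with each mouse left out.

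Signs of small, uncalled differences turned. In females, Cxcl10 was at 0.0012 with HTODemux singlets, 0.18 without the 2% of cells, 0.10 with these chosen after thinning and 0.37 with these ranked without both genes, and from -0.29 to 0.17 with each mouse left out. Stat2 was at 0.0036, 0.017, 0.028 and 0.060 under the same 4 settings, at 0.056 after thinning, and reached 0.063 with a mouse left out. Ifit3 was at 0.017 with the cells ranked without both genes. Usp18 was at -0.20 after thinning and from -0.10 to 0.13 with each mouse left out. The MHC-II antibody ran from -0.041 to 0.19 with each mouse left out. In males, Ifitm3 was at -0.032 with HTODemux singlets, -0.00020 with the replicate block and -0.11 without old male 2. Slfn1 was at 0.0080 and 0.022 without the 2% of cells chosen after thinning or without both genes, and from -0.68 to 0.16 with each mouse left out, as Usp18 ran from -0.51 to 0.27 and Parp9 from -0.031 to 0.46. The cause was not tested.

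Young and old mice share only a number: the correlation of same-numbered mice ran from -0.060 to 0.068 over 10 pairs, and 1 of 5 in each pool correlated best with its own number. With the replicate block, 7 of the 39 genes were called in females and 0 in males, and the share of all genes called is not given. At the depth of the male data, 15 of the 39 genes did not pass the filter on low counts.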
